A study of Homo sapiens with 6 samples.

Results

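The 9 genes described here encode proteins that meet a transfected oligonucleotide or the RNA it pairs with: the RNase H1 gene RNASEH1, the RNase H2 subunit genes RNASEH2A, RNASEH2B and RNASEH2C, the 5′-3′ exonuclease genes XRN1 and XRN2, and the paraspeckle protein genes NONO, SFPQ and PSPC1. They were chosen by name, for what their proteins do, and the count table, which lists 19655 gene symbols, holds every one of them. RNA was sequenced from 3 ASO libraries, of cells transfected with an antisense oligonucleotide against the small nucleolar RNA SNORA67 and labelled a SNORA67 knockdown, and from 3 NC libraries, of cells labelled control. Both groups are labelled HCT116, an established line of colon cancer cells grown in DMEM with foetal bovine serum. The oligonucleotide's sequence and chemistry, its dose, the hours of exposure and what the NC cells were given are not stated in the sources used here, and the treatment note reads the same for all 6 samples. Nothing says whether the replicates are separate cultures. The p-values therefore reflect library-to-library spread alone, and that spread may be technical.

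Antisense oligonucleotides with a stretch of DNA form a hybrid with their target RNA, and RNase H1 cuts the RNA strand of that hybrid. The cut fragments are then degraded, the downstream one from its 5′ end by XRN2 in the nucleus or XRN1 in the cytosol and the upstream one by the 3′-5′ RNA exosome. NONO, SFPQ and PSPC1 form the DBHS family, abundant RNA-binding proteins that pair with each other, build nuclear paraspeckles on the long RNA NEAT1 and bind oligonucleotides with a phosphorothioate backbone. Whether the oligonucleotide of this study acts through RNase H1 or carries such a backbone is not given in the sources used here.

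PSPC1 and SFPQ were higher in ASO libraries, XRN2 was lower, and the other 6 genes did not pass the test. Levels are CPM, each gene's counts relative to the total of its library, with totals adjusted by TMM (trimmed mean of M values) factors, n is 3 libraries a group, and the test is edgeR's quasi-likelihood test with Benjamini-Hochberg adjustment over 14062 genes at a threshold of 0.05. Of all genes tested, 46.0% passed that threshold, so the members' share of 33.3% (3 of 9) lies below it and is no result about the members. Higher genes made up 26.8% and lower genes 19.1% of those tested. The median log2 fold change of the 9 genes was -0.15, beside 0.01 for all genes tested. In RNA from whole cultures, fewer cells that express a gene and less of its RNA per cell cannot be told apart.

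The estimated counts summed to 49136502 to 54905215 in ASO libraries and to 50728524 to 53715905 in NC libraries. EIF4A1, the host gene of SNORA67, was at 617 ± 46.3 CPM in ASO and 1544 ± 55.3 CPM in NC libraries (SD, n = 3 each, edgeR adjusted p = 1.49e-05), while SNORA67 itself was not analysed here. The keratin genes KRT8 and KRT18 and the epithelial transcription factor gene ELF3 were the 3 of 10 listed epithelial genes above 10 CPM in every library, and KRT20 and the intestinal factor gene CDX2 were under 1 CPM in all of them. EPCAM and CDH1 (E-cadherin), which define epithelial cells, were low, at 2.46 to 3.46 and 1.71 to 1.89 CPM in ASO libraries and at 3.37 to 5.68 and 0.894 to 1.33 CPM in NC libraries. The summed epithelial level was 1727 to 2189 CPM in ASO and 2012 to 2276 CPM in NC libraries. Of 10 fibroblast genes, VIM, COL1A1, PDGFRB and THY1 were above 10 CPM throughout. The 10 genes had a summed level of 1728 to 1968 CPM in ASO and 1611 to 1796 CPM in NC libraries. VIM alone was at 1191 to 1345 CPM in ASO and 1157 to 1290 CPM in NC libraries. POSTN had 0 counts, COL1A2 was at most 0.149 CPM, and COL3A1, DCN, LUM and FAP ranged from 0.552 to 5.60 CPM. Within the fibroblast sum COL1A1 (type I collagen) was at 333 to 397 CPM in ASO and 140 to 178 CPM in NC libraries. PDGFRB, a growth factor receptor gene, was at 38.2 to 44.4 CPM in ASO and 96.7 to 109.8 CPM in NC libraries. The 5 leukocyte genes summed to 2.33 to 3.55 CPM in ASO and 0.685 to 1.43 CPM in NC libraries, with PTPRC and CD3E at 0 counts. The 5 endothelial genes summed to 14.8 to 19.4 CPM in ASO and 9.67 to 10.8 CPM in NC libraries, with KDR at 0 counts. With 3 of 10 epithelial and 4 of 10 fibroblast genes above 10 CPM throughout and EPCAM and CDH1 low, these markers do not bear out an epithelial line. Whether the cells are the labelled line was not tested, nor was the part of these levels in the results.

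**Figure D1:**
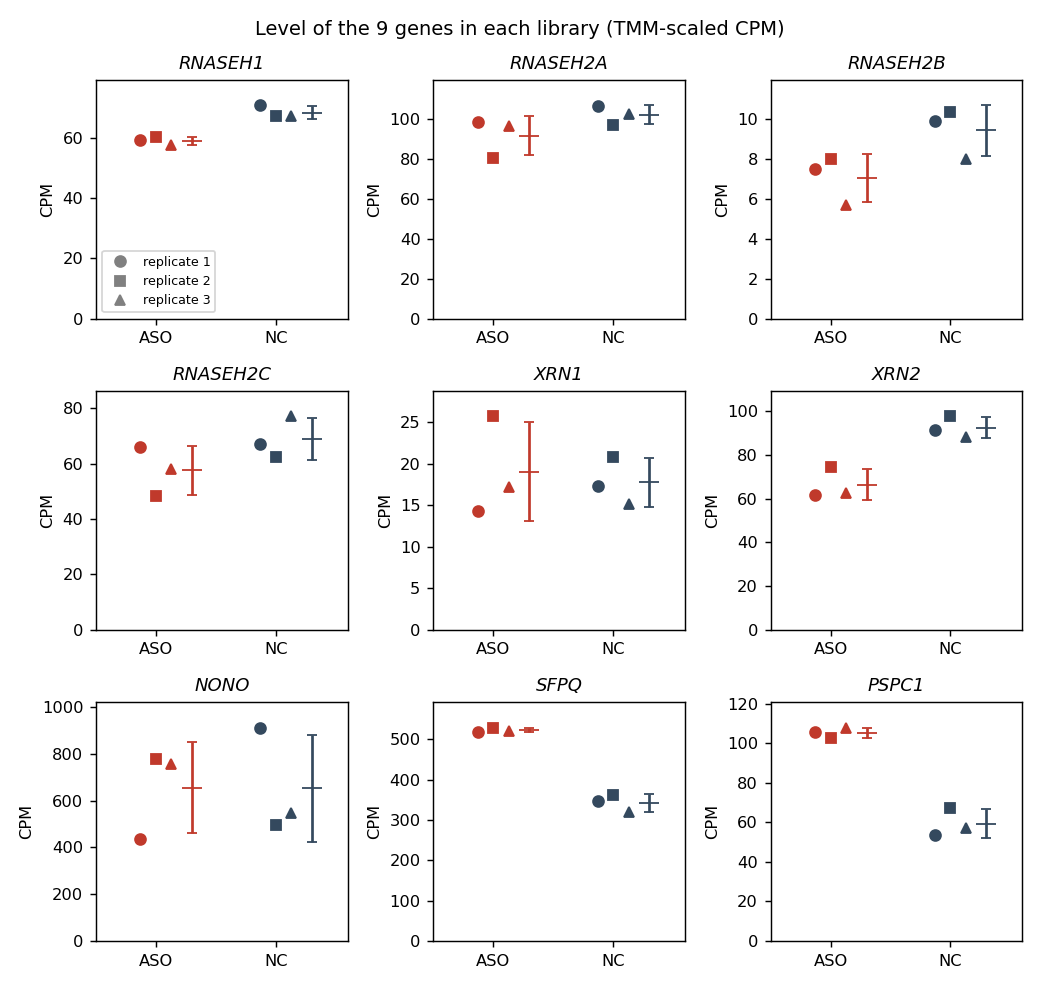
Level of each of the 9 genes in every library, in CPM on a linear axis from 0, ASO left of NC. Symbols are the replicates, and the bar beside them is the mean with its SD (n = 3). SFPQ and PSPC1 sit higher and XRN2 lower in all 3 ASO libraries than in any NC library, and NONO spreads from 433 to 775 CPM within ASO and from 496 to 912 CPM within NC.

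The region just upstream of the annotated start is shown for PSPC1, which rose, for XRN2, which fell, and for NONO, which differed most between libraries of 1 group. Each run holds the 250 bases before the start, 5′ to 3′ on the strand of the gene, from RefSeq on GRCh38.p14, which has an entry for 8 of the 9 genes. Capitals mark matches, on either strand, to the CCAAT box (CCAAT), the GC box (GGGCGG), the AP-1 site (TGANTCA), the cAMP response element (TGACGTCA), the E-box (CACGTG) or the NF-kB site. For NONO and PSPC1 this start lies inside the deposited span of the gene.
PSPC1, chr13:19782946-19783195, minus strand: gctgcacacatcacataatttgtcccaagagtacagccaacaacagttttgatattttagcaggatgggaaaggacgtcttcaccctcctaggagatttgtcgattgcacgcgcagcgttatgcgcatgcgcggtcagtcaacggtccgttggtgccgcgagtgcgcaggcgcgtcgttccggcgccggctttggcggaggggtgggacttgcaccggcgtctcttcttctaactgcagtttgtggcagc
XRN2, chr20:21303081-21303330, plus strand: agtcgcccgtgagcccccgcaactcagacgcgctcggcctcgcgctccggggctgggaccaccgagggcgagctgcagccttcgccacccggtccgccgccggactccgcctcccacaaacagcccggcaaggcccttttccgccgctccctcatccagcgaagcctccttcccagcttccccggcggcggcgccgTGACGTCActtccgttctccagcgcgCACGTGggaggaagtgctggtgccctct
NONO, chrX:71283385-71283634, plus strand: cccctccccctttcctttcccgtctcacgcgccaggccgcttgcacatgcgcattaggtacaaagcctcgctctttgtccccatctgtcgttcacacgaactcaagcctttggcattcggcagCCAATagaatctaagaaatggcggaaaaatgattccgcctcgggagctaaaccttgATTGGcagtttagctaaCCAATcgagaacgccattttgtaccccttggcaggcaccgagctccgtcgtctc

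NONO held 3 CCAAT boxes, a motif found in 32.0% of 35114 RefSeq promoter windows of the same length. XRN2 held 1 cAMP response element and 1 E-box, which are found in 1.65% and 6.35% of the windows. PSPC1 held 0 matches to the 6 motifs, among them the NF-kB site (9.96% of windows) and the AP-1 site (6.57%). RNASEH1 and XRN1 held 4 and 2 GC boxes, a motif in 42.6% of windows, and RNASEH2A and RNASEH2B held 1 and 2 CCAAT boxes. A match says only that these letters occur in the window.

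RNASEH1 encodes the enzyme that acts alone on RNA paired with DNA, in the nucleus and in mitochondria, and lies on the minus strand of chromosome 2 (3541430 to 3558333, hg38), with 8 exons in its longest coding transcript of GENCODE release 29. It stood at 59.4, 60.1 and 57.5 CPM in the ASO libraries and at 70.7, 67.1 and 67.1 CPM in the NC libraries. All 3 ASO values lay below all 3 NC values, as the groups of 57.6% of all genes tested did not overlap. The log2 fold change of -0.21 (SE 0.09, 95% interval -0.42 to -0.01) did not pass (edgeR adjusted p = 0.0837). The spread within groups was small, with an SD of 0.04 on the log2 scale, beside a median of 0.15 for the 3986 genes within 2-fold of its level. With offsets that remove trends with GC content and transcript length, RNASEH1 was called lower at almost the same log2 fold change, -0.20 (edgeR adjusted p = 0.0428). Adding replicate number to the fit gave an edgeR adjusted p of 0.0479, and 0.0516 with the offsets as well. RNASEH1 was not called with any 1 library left out (edgeR adjusted p 0.0675 to 0.241).

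RNase H2 is a complex of a catalytic subunit (RNASEH2A) and accessory subunits (RNASEH2B and RNASEH2C) that takes single ribonucleotides out of DNA and also cuts RNA-DNA hybrids. Its 3 genes were all lower on average in ASO libraries and none passed. RNASEH2A, on chromosome 19 (12806584 to 12813640), was at 98.2, 80.2 and 96.5 CPM in ASO libraries and at 107, 97.1 and 102 CPM in NC libraries. The groups overlapped, with a log2 fold change of -0.15 (SE 0.11, 95% interval -0.40 to 0.09, edgeR adjusted p = 0.269). RNASEH2B, on chromosome 13 (50909747 to 51024120), had the fewest counts of the 9 genes. It was at 7.49, 7.98 and 5.68 CPM in ASO libraries and 9.93, 10.4 and 8.0 CPM in NC libraries. Its highest ASO value lay just under its lowest NC value, and the log2 fold change of -0.42 carried the widest interval of the 4 RNase H genes (SE 0.20, 95% interval -0.88 to 0.04, edgeR adjusted p = 0.12). RNASEH2C, on chromosome 11 (65717673 to 65720801), was at 66.2, 48.5 and 58.2 CPM in ASO libraries and at 67.2, 62.3 and 77.1 CPM in NC libraries. The groups overlapped, with a log2 fold change of -0.26 (SE 0.14, 95% interval -0.58 to 0.07, edgeR adjusted p = 0.172).

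RNASEH2C shares 1439 exonic bases with KAT5, an acetyltransferase gene on the opposite strand, and no source used here says whether the counting used strand, so reads of the shared part cannot be assigned with certainty. KAT5 was at 59.1 ± 5.88 CPM in ASO and 57.0 ± 2.62 CPM in NC libraries (edgeR adjusted p = 0.734). RNASEH2A shares 1123 exonic bases with THSD8 on its own strand, which stood at 0.751 ± 0.168 CPM in ASO and 0.033 ± 0.057 CPM in NC libraries. The other members share at most 282 exonic bases with any annotated gene. With GC and length offsets RNASEH2C, the member richest in G and C at 57.7%, was called lower by 0.43 on the log2 scale (edgeR adjusted p = 0.00409).

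XRN2, the nuclear 5′-3′ exonuclease, which also degrades the RNA left behind RNA polymerase II at gene ends, lies on the plus strand of chromosome 20 (21303331 to 21389825). It was at 61.6, 74.4 and 62.6 CPM in ASO libraries and at 91.4, 97.6 and 88.1 CPM in NC libraries. The highest ASO library stayed under the lowest NC library. It was 1.39-fold lower in ASO, a log2 fold change of -0.48 (SE 0.11, 95% interval -0.73 to -0.23, edgeR adjusted p = 0.00829), and remained called with any 1 library left out (adjusted p 0.00253 to 0.0409). Its RNA has a GC content of 42.9%, below the median of 49.8% for the 12390 genes at 1 CPM or more. With GC and length offsets the difference shrank to -0.16 and missed the threshold (edgeR adjusted p = 0.058).

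XRN1, the cytosolic exonuclease that degrades decapped mRNA, lies on the minus strand of chromosome 3 (142306607 to 142448062) and has 42 exons in its longest coding transcript. It was at 14.3, 25.7 and 17.2 CPM in ASO libraries and at 17.3, 20.9 and 15.1 CPM in NC libraries. ASO replicate 2 was the highest of the 6 libraries and ASO replicate 1 the lowest, so the NC values lay within the range of the ASO values. The log2 fold change of 0.10 (SE 0.24, 95% interval -0.44 to 0.65, edgeR adjusted p = 0.749) turned to -0.18 without ASO replicate 2 and to -0.01 without NC replicate 3. XRN1 has the lowest GC content of the 9 genes, 37.3%, and an exonic length of 10809 bases beside a median of 3668 bases. With GC and length offsets it was called higher, by 0.51 on the log2 scale (edgeR adjusted p = 0.00436).

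The log2 ratio of XRN1 to XRN2 counts within a library, which needs no scaling between libraries, was -2.11, -1.53 and -1.86 in ASO libraries and -2.40, -2.23 and -2.55 in NC libraries. The values did not overlap, and the difference of 0.56 had a p of 0.1 in a two-sided exact permutation test, the smallest that 3 against 3 libraries can give. The log2 ratio of RNASEH1 to RNASEH2A averaged -0.63 ± 0.19 in ASO and -0.58 ± 0.04 in NC libraries (exact permutation p = 0.6). Over the 4 ratios examined, Benjamini-Hochberg adjustment raises these exact permutation p-values to 0.4 and 0.6.

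**Figure D2:**
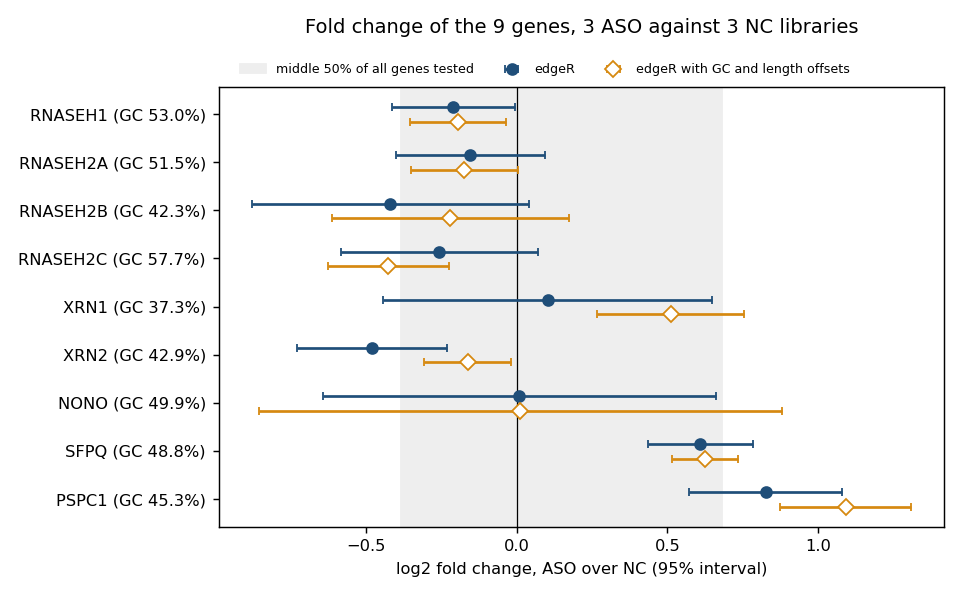
Log2 fold change of each gene, ASO over NC, with its 95% interval, from edgeR (filled) and from edgeR with offsets for GC content and length (open), 3 libraries a group. The grey band spans the middle 50% of all 14062 genes tested, -0.39 to 0.68, in the fit without offsets. SFPQ and PSPC1 lie above 0 in both fits, SFPQ inside that band and PSPC1 above it. XRN2 moves toward 0 with the offsets, and XRN1 moves away from 0.

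SFPQ, a DBHS protein that also takes part in splicing and DNA repair, lies on the minus strand of chromosome 1 (35182936 to 35193446). It was at 519, 529 and 520 CPM in ASO libraries and at 346, 363 and 318 CPM in NC libraries. The ASO libraries lay close together, with a ratio of highest to lowest of 1.02, and clear of every NC library. SFPQ rose 1.53-fold in ASO (95% interval 1.35 to 1.72, edgeR adjusted p = 0.000565). Of all genes tested, 22.4% were called higher at 1.5-fold or more, and the groups of 57.6% did not overlap. The log2 fold change of SFPQ was 0.61 and stayed between 0.55 and 0.66 with any 1 library left out.

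PSPC1, or paraspeckle component 1, a marker of paraspeckles, lies on the minus strand of chromosome 13 (19702500 to 19783019). It was at 106, 103 and 108 CPM in ASO libraries and at 53.4, 67.4 and 57.4 CPM in NC libraries. Every ASO value exceeded every NC value. PSPC1 rose 1.77-fold in ASO (95% interval 1.49 to 2.11, edgeR adjusted p = 0.000775), the largest fold change of the 9 genes in either direction, and its log2 fold change of 0.83 became 1.09 with GC and length offsets.

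NONO, the DBHS protein encoded on chromosome X (71254814 to 71301522, plus strand), did not pass the test. It was at 433, 775 and 758 CPM in ASO libraries and at 912, 496 and 547 CPM in NC libraries. ASO replicate 1 was the lowest of the 6 libraries and NC replicate 1 the highest, and each group held both high and low values. The means were 656 ± 192 CPM in ASO and 651 ± 227 CPM in NC libraries, and the log2 fold change of 0.01 had a 95% interval from -0.64 to 0.66 (edgeR adjusted p = 0.982), which includes the change estimated for SFPQ and not that for PSPC1. Left-out libraries moved it between -0.14 and 0.33. Within groups its SD was 0.47 on the log2 scale, beside a median of 0.12 for the 469 genes within 2-fold of its level, of which 8 had a larger SD. GENCODE lists a processed pseudogene of NONO, NONOP2, as well as pseudogenes of PSPC1, SFPQ, RNASEH1 and RNASEH2C, and how reads that match several places were counted is not given in the sources used here.

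**Figure D3:**
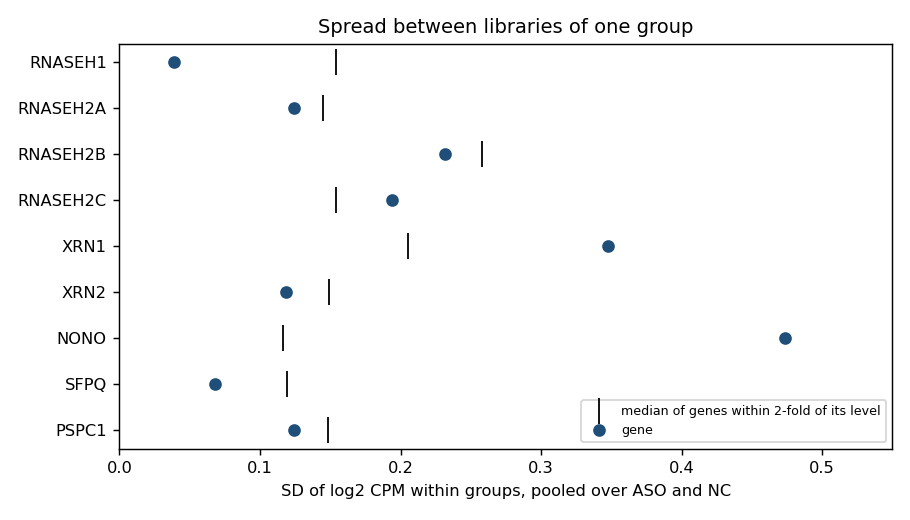
SD of log2 CPM between libraries of 1 group, pooled over ASO and NC (n = 3 each), for each gene (points), with the median SD of the genes within 2-fold of its level (vertical ticks). NONO lies at 0.47 against a median of 0.12, and RNASEH1 at 0.04 against 0.15.

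SFPQ and PSPC1 were also set against NONO within each library. The log2 ratio of SFPQ to NONO counts was 0.26, -0.55 and -0.54 in ASO libraries and -1.40, -0.45 and -0.78 in NC libraries. ASO replicate 1 and NC replicate 1, where NONO was lowest and highest, held the extremes, and the difference of 0.60 had an exact permutation p of 0.3. The log2 ratio of PSPC1 to NONO averaged -2.59 ± 0.48 in ASO and -3.41 ± 0.62 in NC libraries, a difference of 0.82 (exact permutation p = 0.2). Adjusted over the 4 ratios, both exact permutation p-values are 0.4. With 0.1 as the smallest p for 3 against 3 libraries, no ratio could pass 0.05.

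Per kilobase of exonic length, the DBHS genes NONO and SFPQ stood above the other members in both groups. NONO was at 204 ± 59.8 CPM per kilobase in ASO and 202 ± 70.4 in NC libraries, and SFPQ at 139 ± 1.46 in ASO and 91.4 ± 6.0 in NC libraries. Their single-library values overlapped in ASO and did not in NC. PSPC1 came next in ASO, at 42.0 ± 1.04 CPM per kilobase, beside 23.7 ± 2.87 in NC libraries, where it lay among XRN2, RNASEH2C, RNASEH1 and RNASEH2A (means 22.7 to 37.0). Those 4 genes had means of 19.0 to 33.3 CPM per kilobase in ASO libraries. XRN1 was at 1.76 ± 0.55 CPM per kilobase in ASO and 1.64 ± 0.27 in NC libraries, and RNASEH2B at 0.580 ± 0.0997 in ASO and 0.776 ± 0.104 in NC libraries. The last 2 rest on exonic lengths of 10809 and 12159 bases in the annotation, and a shorter transcript in use would raise them.

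The genes closest in profile were sought for the 3 members with the smallest p-values, by the root mean square distance of log2 CPM centred on each gene's mean over the 6 libraries, among genes at 1 CPM or more. Closest to SFPQ were PCGF3 (distance 0.04) and IPPK (0.05), to PSPC1 IKZF4 and GNG11 (0.05 each), and to XRN2 LMNB1 (0.02) and SUPT16H (0.03). LMNB1, which encodes lamin B1 of the nuclear envelope, was at 162 ± 15.0 CPM in ASO and 228 ± 14.5 CPM in NC libraries, a difference that its choice by likeness to XRN2 fixes.

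Other components of paraspeckles included genes that rose and genes that fell. NEAT1 and MALAT1 were not analysed here. Of 37 other paraspeckle protein genes tested, 9 were higher and 9 lower in ASO libraries and 19 did not pass, a share of 48.6% beside 46.0% for all genes, with a median log2 fold change of 0.08. The counts were 13 higher and 6 lower with GC and length offsets, a fit that called 7374 of all 13924 genes tested. The median log2 fold change of all genes in that fit was 0.06. RBM12, an RNA-binding protein gene, rose 4.08-fold, at 124 ± 7.32 CPM in ASO and 30.3 ± 17.0 CPM in NC libraries (edgeR adjusted p = 0.00243). CELF6, a splicing regulator gene, rose 4.74-fold to 7.48 ± 1.10 CPM in ASO, against 1.58 ± 1.39 CPM in NC libraries (edgeR adjusted p = 0.0161), and missed the threshold without NC replicate 1 (adjusted p = 0.0566). Without NC replicate 3 its log2 fold change was 3.20 in place of 2.25. FIGN and ZC3H6 were 1.61-fold and 1.51-fold lower in ASO, at 5.64 ± 1.29 and 5.52 ± 0.20 CPM, against 9.11 ± 1.04 and 8.33 ± 0.79 CPM in NC libraries, and with GC and length offsets neither was called (edgeR adjusted p = 0.164 and 0.364). FIGN was also not called when any library but ASO replicate 2 was left out (edgeR adjusted p 0.0605 to 0.115). ZC3H6 was not called without ASO replicate 3 or NC replicate 1 or 2 (0.0666 to 0.0834). The count of lower genes fell to 3 without NC replicate 2, 4 without ASO replicate 1 or 3, and 5 without NC replicate 1.

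Around XRN1, genes of decapping and cytosolic decay were mixed, 5 higher and 3 lower of 22 tested, with a median log2 fold change of 0.09. That is 36.4% called, beside 46.0% of all genes. UPF1, the helicase of nonsense-mediated decay, rose 1.71-fold to 184 ± 15.7 CPM in ASO, against 107 ± 6.70 CPM in NC libraries (edgeR adjusted p = 0.000597). PNRC2, an adaptor between UPF1 and decapping, rose 1.54-fold (edgeR adjusted p = 0.0234) and was not called without ASO replicate 1 or NC replicate 1 or 3 (0.0584 to 0.0771). With GC and length offsets its log2 fold change was 1.32 in place of 0.62. LSM5, a subunit of the LSM ring, and DCP1B, a decapping cofactor, were 1.59-fold and 1.58-fold lower (edgeR adjusted p = 0.0388 and 0.0293). With the offsets the differences of LSM5 and DCP1B were -0.02 and -0.12 on the log2 scale and not called (edgeR adjusted p = 0.858 and 0.748). LSM5 was not called without ASO replicate 1 or 3 or NC replicate 1 or 2 (0.0948 to 0.14), nor DCP1B without ASO replicate 1 or 2 or NC replicate 1 or 3 (0.0554 to 0.0886). Without ASO replicate 1 or NC replicate 1 the list held 3 higher and 1 lower.

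Around XRN2, 3 of 12 partner genes were higher and 4 lower, with a median log2 fold change of -0.24. That is 58.3% called, beside 46.0% of all genes, of which 26.8% were higher and 19.1% lower. The offsets for GC and length left 3 higher and 3 lower, beside 7374 of all 13924 genes called in that fit. CDKN2AIP, whose protein binds XRN2, rose 3.17-fold to 19.6 ± 5.05 CPM in ASO, against 6.18 ± 0.74 CPM in NC libraries (edgeR adjusted p = 0.000844). NKRF, another XRN2-binding protein, was 2.72-fold lower at 10.5 ± 2.72 CPM in ASO, against 28.6 ± 13.7 CPM in NC libraries (edgeR adjusted p = 0.019), with groups that overlapped. CPSF3, the endonuclease of 3′ end cleavage, was 1.81-fold lower at 15.5 ± 5.45 CPM in ASO, against 28.0 ± 4.09 CPM in NC libraries (edgeR adjusted p = 0.0262). The count of lower genes was 0 without ASO replicate 3 or NC replicate 3, 1 without NC replicate 1 or 2, and 2 without ASO replicate 1. NKRF was not called without ASO replicate 2 or 3 or NC replicate 1 or 3 (edgeR adjusted p 0.057 to 0.0848) or with GC and length offsets (0.0784). CPSF3 was not called without ASO replicate 3 or any 1 NC replicate (0.0545 to 0.0961).

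Of 26 genes of the RNA exosome and its cofactors, 9 were lower and 2 higher in ASO libraries, 42.3% called in all beside 46.0% of all genes, with a median log2 fold change of -0.14. In the fit with GC and length offsets 8 were lower and 4 higher, beside 7374 of all 13924 genes called. MTREX, the exosome's nuclear helicase, was 2.40-fold lower at 19.7 ± 8.90 CPM in ASO, against 47.2 ± 11.1 CPM in NC libraries (edgeR adjusted p = 0.0144, 0.0557 without ASO replicate 3 and 0.061 without NC replicate 2). MPHOSPH6, an exosome-associated protein of ribosomal RNA processing, was 2.28-fold lower at 8.31 ± 3.40 CPM in ASO, against 18.9 ± 3.52 CPM in NC libraries (edgeR adjusted p = 0.0126, 0.0519 without ASO replicate 3 and 0.0507 without NC replicate 2). Its log2 fold change was -0.56 with GC and length offsets, in place of -1.19. ZCCHC8, which links MTREX to short-lived transcripts, rose 2.33-fold to 103 ± 38.1 CPM in ASO, against 44.3 ± 7.19 CPM in NC libraries (edgeR adjusted p = 0.0092, and 0.0505 without ASO replicate 2). TENT4A, a poly(A) polymerase gene, rose 1.33-fold (edgeR adjusted p = 0.00478), and with GC and length offsets was not called (adjusted p = 0.19). Without NC replicate 2 the lower count was 5. EXOSC6, an exosome subunit gene that did not pass (edgeR adjusted p = 0.706), was at 0.838, 0.720 and 87.2 CPM in ASO libraries. In NC libraries EXOSC6 was at 51.3, 52.3 and 46.6 CPM. The cause of its spread between ASO libraries was not tested.

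**Figure D4:**
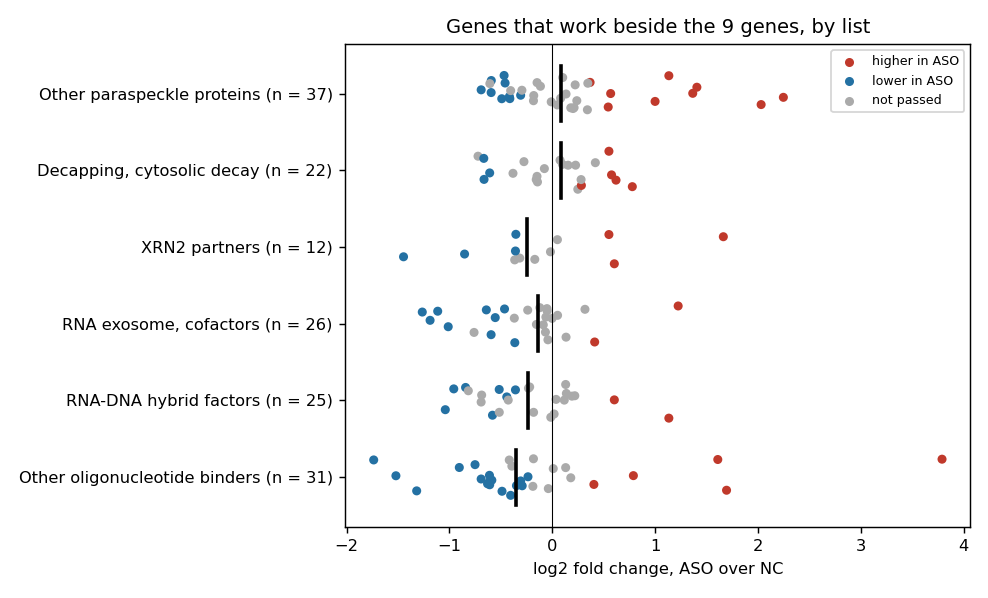
Log2 fold change, ASO over NC, of the genes tested in each of 6 lists of partners, coloured by the edgeR call, with the list's median as a black bar. Vertical scatter has no meaning, and STAB1, whose NC level is under the detection limit, is left out. The oligonucleotide binders have the lowest median in this fit, -0.35, and with GC and length offsets it is -0.14, above those of the hybrid factors (-0.16) and the exosome (-0.15). All genes tested have a median of 0.01 in this fit and 0.06 with the offsets.

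Among other factors that resolve RNA-DNA hybrids, 7 of 25 genes were lower and 2 higher, with a median log2 fold change of -0.23. The share called was 36% beside 46.0% of all genes. With GC and length offsets 6 were lower and 5 higher, beside 7374 of all 13924 genes called in that fit. TOP1, the topoisomerase that relaxes DNA ahead of transcription and also a listed paraspeckle component, rose 2.19-fold to 488 ± 40.7 CPM in ASO, against 222 ± 21.4 CPM in NC libraries (edgeR adjusted p = 0.000107). SAMHD1, which degrades deoxynucleotide triphosphates, was 1.94-fold lower at 28.7 ± 4.11 CPM in ASO, against 55.7 ± 1.18 CPM in NC libraries (edgeR adjusted p = 0.000857). THOC1, of the mRNA export complex THO, was 2.06-fold lower at 11.4 ± 5.69 CPM in ASO, against 23.5 ± 4.20 CPM in NC libraries (edgeR adjusted p = 0.0351), and not called with GC and length offsets (adjusted p = 0.0684) or when any library but ASO replicate 2 was left out (0.0607 to 0.12). The count of lower genes was 3 without ASO replicate 1 or 3 or NC replicate 1 or 2 and 4 without NC replicate 3.

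The list with the highest share of calls among the 6 held other proteins reported to bind, take up or move phosphorothioate oligonucleotides. Of 31 tested, 17 were lower and 6 higher in ASO libraries, 74.2% in all beside 46.0% of all genes, with a median log2 fold change of -0.35. With GC and length offsets the counts were 14 lower and 6 higher and the median -0.14. That fit called 7374 of all 13924 genes tested, more than the main fit, and the median of all genes was 0.06. The La protein gene SSB, whose product binds the ends of new small RNAs, was 3.33-fold lower at 52.5 ± 15.6 CPM in ASO, against 175 ± 34.2 CPM in NC libraries (edgeR adjusted p = 0.00077). The log2 fold change of SSB was -1.05 with the offsets, in place of -1.74. HSP90AA1, an Hsp90 chaperone gene, was 2.87-fold lower at 1077 ± 336 CPM in ASO, against 3088 ± 498 CPM in NC libraries (edgeR adjusted p = 0.00111). The genes on the list that were highest in ASO relative to NC were receptor genes known from liver. Rises of this size were common, as 1144 of 14062 genes tested lay at a log2 fold change of 2.9 or above, called or not. ASGR1, an asialoglycoprotein receptor subunit, rose 13.8-fold to 5.96 ± 0.78 CPM in ASO, against 0.428 ± 0.173 CPM in NC libraries (edgeR adjusted p = 0.000116). STAB1, a scavenger receptor of sinusoidal endothelium, had 265, 206 and 283 counts in ASO libraries and 0, 0 and 8 counts in NC libraries, all of the NC values under the detection limit of 12 counts per library, so no fold is given. The summed endothelial markers were also higher in each ASO library than in any NC library, as were the summed leukocyte markers. The endothelial sum was at 14.8 to 19.4 CPM in ASO and 9.67 to 10.8 CPM in NC libraries. The leukocyte sum was at 2.33 to 3.55 CPM in ASO and 0.685 to 1.43 CPM in NC libraries. The epithelial and fibroblast sums overlapped between the groups. Of the endothelial genes only PECAM1 kept its groups apart, at 8.40 to 10.8 CPM in ASO and 5.61 to 5.85 CPM in NC libraries. The groups overlapped for CDH5, VWF and TEK, KDR had 0 counts, and the part of these markers was not tested.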

How the data were processed

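RNA sequencing of 6 libraries, 3 ASO and 3 NC, was analysed from the deposited table of estimated counts per gene symbol, whose totals differ between libraries. Per the submitters' processing notes the tools were FastQC, STAR, StringTie and DESeq2 with hg38, without roles or parameters, and no source used here gives the annotation release or strand setting. The values were whole numbers, so rounding changed nothing. In each library 4 was the commonest nonzero value, as counts derived from coverage at about 4 counts a fragment would give, so 3 fragments or 12 counts were taken as the detection limit, for counting error only.

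Counts were fitted in R 4.3.3 with edgeR 4.0.16 (filterByExpr, minimum count 10 and total 15, 14062 genes kept, TMM factors 0.978 to 1.02, robust quasi-likelihood test, Benjamini-Hochberg over all genes). Alternatives were RLE, upper-quartile and no scaling, other filters, DESeq2 1.42.0, limma-voom (limma 3.58.1), counts divided by 4, a replicate block, offsets per library that remove spline trends with GC content and exonic length (GENCODE release 29, 97.9% of symbols matched), those offsets with the block, and leaving out each library. Tests were checked on simulated counts, drawn independently for each library at a single dispersion. That setting does not cover the spread between the libraries of this study. Library pairs of a group differed by 9.87 to 28.0 times the sampling noise. The members, the 6 partner lists and the tests were chosen with earlier results of these data known. Genes named were the 9 members, EIF4A1, up to 2 largest rises and falls per list among called genes at 1 CPM or more, and the 2 nearest profiles of 3 members, and 1 gene of this rule is not reported here. The overlapping genes KAT5 and THSD8, the exosome gene EXOSC6 and the named markers were chosen after values were seen. 3 exosome genes were matched through older symbols. Within-library ratios of counts were compared by exact permutation.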

Additional observations from a re-analysis of the deposited data

How the results depend on the processing

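The rises of SFPQ and PSPC1 kept their direction and call under all 17 alternatives, with edgeR, DESeq2 or limma-voom adjusted p of at most 0.00496 and 0.0062. XRN2 kept its call under 15 of 17 and lost it with GC and length offsets (-0.16, edgeR adjusted p = 0.058) and with those offsets and the replicate block (-0.16, adjusted p = 0.0613). NONO was called under no alternative and changed sign under 6. XRN1 changed sign under 2 and was called higher with GC and length offsets (0.51, edgeR adjusted p = 0.00436) and with those offsets and the block (0.51, adjusted p = 0.00936), which makes the higher members 3 in place of 2. NONO was at -0.0102 with upper-quartile scaling, -0.0038 with library totals alone, -0.13 without ASO replicate 2, -0.11 without ASO replicate 3, -0.14 without NC replicate 2 and -0.11 without NC replicate 3, a range over left-out libraries of -0.14 to 0.33. XRN1 was at -0.18 without ASO replicate 2 and -0.01 without NC replicate 3, a range over left-out libraries of -0.18 to 0.27. The lower members numbered 2 with the replicate block (RNASEH1 and XRN2), 2 with GC and length offsets (RNASEH1 and RNASEH2C) and 2 with both (RNASEH2A and RNASEH2C), in place of 1.

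With 1 library left out, the genes lower in ASO ran from 1755 to 3199 over the whole table (1755 without NC replicate 1, 1764 without ASO replicate 3), 3 to 13 among other paraspeckle genes, 1 to 3 in cytosolic decay, 0 to 5 among XRN2 partners, 5 to 10 in the exosome list and 3 to 9 in the hybrid list. Higher genes in cytosolic decay ran from 3 to 6. The replicate block gave 11 lower hybrid genes and 7418 calls in all, in place of 6464, and an adjusted p of 0.0479 for RNASEH1. GC and length offsets, with or without the block, gave 4 higher exosome and 5 higher hybrid genes. Of 13924 genes tested with the offsets, 7374 were called, and 7199 with the block added. The deviations of same-numbered ASO and NC libraries had correlations of 0.08, 0.30 and 0.04 over 12475 genes. The value of 0.30, for replicate 2, was the highest of any ASO and NC pair. Replicate 2 of each group correlated negatively with replicates 1 and 3 of the other (-0.13 to -0.22). ASO replicate 1 correlated best with NC replicate 3, so the numbers are not read as pairs. The cause of the shifts in counts, or of a deviation shared by the replicate 2 libraries, was not tested. Filtering out no gene raised the median of all genes by 0.11 on the log2 scale. NONO had 23276 to 48300 counts a library.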
